A study of Komagataella phaffii GS115 with 9 samples.

Results

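The transcriptome of a stress-tolerant mutant of *Pichia pastoris* (syn. *Komagataella phaffii*) was compared with that of its parent on methanol at 28 °C. The 6 libraries of this comparison were taken by their labels from the 9 libraries of the series. They comprise 3 replicates of the robust mutant (Mut_Met, labelled G14_28) and 3 of the WT (WT_Met, labelled Parent_28), all collected at 60 h of flask fermentation in BMGY/BMMY medium. Of these media BMGY holds glycerol and BMMY holds methanol, the inducer. The mutant was derived from this WT by adaptive laboratory evolution and is labelled as tolerant to oxidative and thermal stress. Both strains carry a lipase gene, *RCL*, under the methanol-inducible *AOX1* promoter, so a transgene is common to all libraries. The study names the replicates as biological. The remaining 3 libraries are of the same mutant induced at 37 °C (Mut_Met_37C), and their values are given only beside single genes.

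*P. pastoris* is a methylotrophic yeast. On methanol, alcohol oxidase in the peroxisome turns methanol into formaldehyde and hydrogen peroxide, and catalase breaks down the peroxide. Formaldehyde is either assimilated with xylulose 5-phosphate by dihydroxyacetone synthase or dissimilated to carbon dioxide through formaldehyde dehydrogenase and formate dehydrogenase. The genes of these steps belong to the most strongly transcribed genes of methanol-grown cells. The deposited table lists locus tags with the prefix PP7435 and no gene names, and the reference table of strain GS115 shares 0 identifiers with it. The methanol genes could therefore not be picked out by name, no sequence could be assigned to a tag, and features are described below by level, length and chromosome.

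The table holds 5557 features, of which 5527 are locus tags and 30 are numbered entries without a tag. Its values have the form of FPKM, that is, reads divided by feature length and by a library size. Whole reads were recovered from the steps between the values, with 13131111 to 13781391 reads in a Mut_Met library and 13655260 to 13998351 in a WT_Met library. At this depth 3 reads on a feature of 1000 bases correspond to between 0.242 and 0.253 FPKM. The 5448 features with a mean of at least 1 FPKM in one of the strains were tested with limma on log2(FPKM + 1). The added 1 makes log2 fold changes of features with low FPKM too small in size, also where a long feature has many reads. Replicates differed little, with a median standard deviation per feature of 0.069 in Mut_Met and 0.060 in WT_Met on the log2 scale. Mut_Met replicate 3 lay farthest from its group, with a median absolute deviation of 0.053, against 0.036 to 0.045 in the other libraries.

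The strains differed strongly in a small part of the transcriptome and mildly in most of it. An adjusted p-value under 0.05 (limma, Benjamini-Hochberg) together with an absolute log2 fold change above 1 was reached by 195 features, 3.58% of those tested. Of these, 96 rose in Mut_Met (1.76% of the tested features) and 99 fell (1.82%). The features that rose had a median level of 113.9 FPKM in Mut_Met and 44.9 FPKM in WT_Met, and those that fell had 31.4 FPKM in Mut_Met and 83.1 FPKM in WT_Met, while the median of all tested features was 68.4 FPKM in Mut_Met and 68.6 FPKM in WT_Met. The median log2 fold change was 1.30 among the features that rose and -1.21 among those that fell, and 9 rose and 10 fell at least 4-fold. The adjusted p-value alone was under 0.05 for 66.3% of the features. The groups did not overlap in 71.3% of all tested features (32.2% higher and 39.1% lower in Mut_Met) and in 192 of the 195. The split depends on scaling. With libraries set to equal sums of FPKM, the median log2 fold change of all features moved by 0.10, and 63.7% of 204 called features were higher, against 49.2% of 195 with the deposited scaling.

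**Figure D1:**
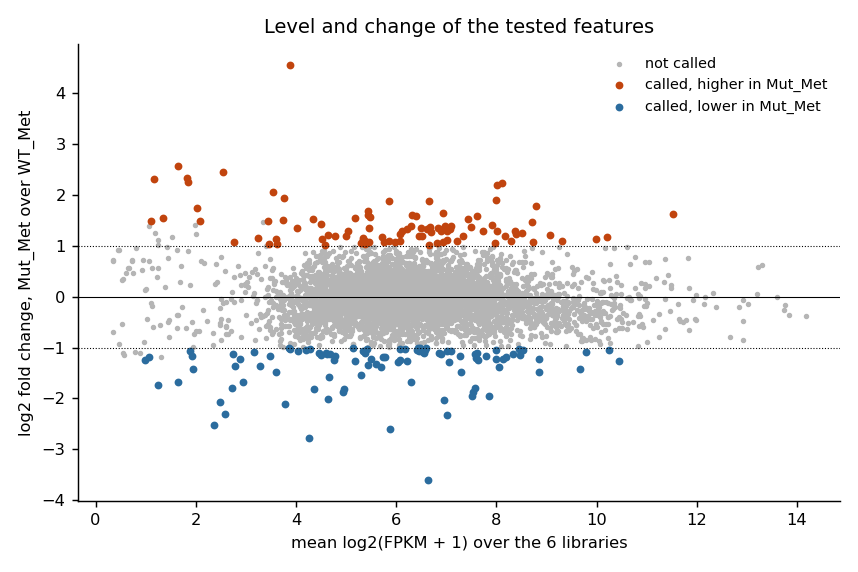
Mean log2(FPKM + 1) over the 6 libraries (x axis) against the log2 fold change of Mut_Met over WT_Met (y axis) for each tested feature, with dotted lines at a log2 fold change of 1 in either direction. The 96 features called higher and the 99 called lower spread over nearly the whole range of levels, and the most abundant features lie between the dotted lines.

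Among called features with at least 5 FPKM in one strain and groups that did not overlap, locus tag CHR4-1158 of chromosome 4, 522 bases long, rose most. It had 63.8, 73.5 and 75.2 FPKM in Mut_Met, against 2.34, 1.89 and 1.93 FPKM in WT_Met. The tag was near the lower end of expression in every WT_Met library, with 12 to 15 reads, and slightly above the median level of the transcriptome in Mut_Met replicates 2 and 3. The means of 70.8 ± 6.14 and 2.05 ± 0.25 FPKM (SD, n = 3 each) gave a log2 fold change of 4.56 with a standard error of 0.10 (adjusted p = 1.9e-08, limma). It was between 124.9 and 147.6 FPKM in the Mut_Met_37C libraries. Among the 5 tested tags on each side of it in the numbering, 2 were called higher and 1 lower. Of all tested features, 1.76% were called higher and 1.82% lower. The tags on either side had log2 fold changes from -1.11 to 1.13.

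The next largest increase was that of CHR3-0900 on chromosome 3, a feature of 73 bases that few reads cover. It had 8.84, 3.47 and 9.02 FPKM in Mut_Met, against 0, 1.13 and 0 FPKM in WT_Met. These values rest on 8, 3 and 8 reads in Mut_Met and on 1 read in all WT_Met libraries together. The groups did not overlap, yet the ratio of 19.0 had a 95% counting interval (exact, counting error only) from 3.02 to 789. Its log2 fold change was 2.57 with a standard error of 0.45 (adjusted p = 9.4e-04, limma). In the Mut_Met_37C libraries CHR3-0900 had 5.97, 0 and 3.20 FPKM. None of its 10 nearest tested neighbours was called, against 3.58% of all tested features. Of the 12 largest increases, 6 were features of at most 120 bases, and the same number had under 100 reads over the 6 libraries. Of the 12 largest decreases, 1 was this short and 1 had under 100 reads. No count at the limits of 120 bases and 100 reads was made over all tested features. At the lower limit of 100 bases, 81 of the 5448 tested features were this short.

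The largest decrease was that of CHR3-1226 on chromosome 3, a tag of 1422 bases. It had 32.2, 20.4 and 32.3 FPKM in Mut_Met, against 327.7, 320.6 and 398.4 FPKM in WT_Met. A well expressed feature of the parent was thus reduced to below the median level in every mutant library. The log2 fold change was -3.60 with a standard error of 0.16 (adjusted p = 5.9e-07, limma), and 10.95 to 14.7 FPKM were found in the Mut_Met_37C libraries. CHR3-1237, of 945 bases and on the same chromosome, had 6.57, 5.72 and 6.79 FPKM in Mut_Met, against 54.1, 46.3 and 47.4 FPKM in WT_Met. Its log2 fold change was -2.77 with a standard error of 0.092 (adjusted p = 1.7e-07, limma). In the Mut_Met_37C libraries it lay between 28.0 and 36.0 FPKM, above every Mut_Met library at 28 °C and below every WT_Met library. These 4 tags were picked among features whose groups did not overlap. An exact two-sided permutation test of each could therefore only give p = 0.1, the smallest possible with 3 libraries against 3.

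**Figure D2:**
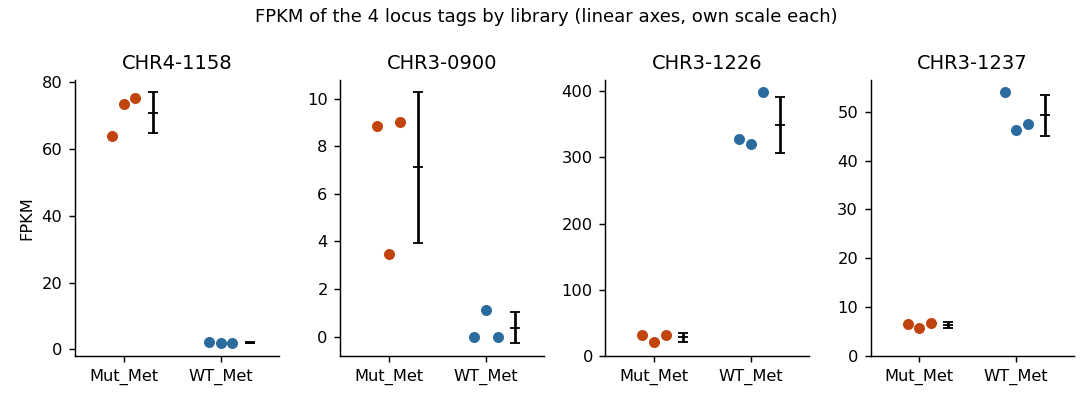
FPKM of the 4 locus tags in each Mut_Met and WT_Met library, on linear axes with a scale of their own. Points are libraries and the bars beside them are the mean and SD (n = 3). CHR4-1158 and CHR3-0900 are higher in all Mut_Met libraries, and CHR3-1226 and CHR3-1237 are lower in all of them.

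Part of the called features were neighbours in the numbering of the tags. The tested tags of each chromosome were ordered by number. Of the 195 called features, 51 stood in runs of at least 2 neighbours that changed in the same direction. There were 20 such runs, 14 higher and 6 lower. Chromosome 3 held 9 of these runs with 27 tags, and 68 of its 1311 tested tags were called (5.19%), against 2.41% on chromosome 2, 2.94% on chromosome 1 and 3.94% on chromosome 4. The order by number was not checked against genome coordinates. These counts are a description without a test, and the number of runs expected by chance was not worked out.

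A run of 4 higher tags on chromosome 3, singled out after its values were seen, contains the most abundant of all called features. This feature of 1764 bases had 5469, 5303 and 4878 FPKM in Mut_Met, against 1591, 1651 and 1820 FPKM in WT_Met. Its log2 fold change was 1.63 with a standard error of 0.065 (adjusted p = 3.1e-07, limma), at 34460 to 38324 reads in a WT_Met library. The next tags of the run, of 1620 and 1626 bases, averaged 553.6 ± 28.8 and 595.5 ± 22.1 FPKM in Mut_Met, against 120.7 ± 3.67 and 126.7 ± 5.32 FPKM in WT_Met (SD, n = 3 each). Their log2 fold changes were 2.19 and 2.22, so that these neighbours of similar length rose by nearly the same factor. The run also includes a tag of 117 bases with 4 reads or fewer in each WT_Met library.

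CHR3-1226 and CHR3-1237 each belong to a run of 3 lower tags on the same chromosome. Within 5 tested tags of each of them, 4 of 10 neighbours were called lower and 0 higher, against 1.82% and 1.76% of all features. The other tags of each run are among these 4, and both windows were centred on tags picked for their decrease. In the run of CHR3-1226 the other tags, of 756 and 705 bases, had log2 fold changes of -1.19 and -2.60. The tag of 705 bases among them had 27.0, 18.6 and 23.2 FPKM in Mut_Met, against 137.7, 141.6 and 149.8 FPKM in WT_Met. In the run of CHR3-1237 the other tags had log2 fold changes of -2.11 and -2.07, the second of them with a length of 6296 bases and at most 2.01 FPKM in Mut_Met, against at least 9.90 FPKM in WT_Met.

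The other runs of 3 or more tags, all higher, had log2 fold changes from 1.04 to 1.54. The 13 runs of 2 tags ranged from -2.52 to 2.34. On chromosome 3, a run of 4 tags of 1212 to 4851 bases had log2 fold changes of 1.102 to 1.344. Its longest tag had 67.8, 68.4 and 70.3 FPKM in Mut_Met, against 27.1, 26.4 and 26.1 FPKM in WT_Met. Close to it in number, a run of 3 tags had log2 fold changes of 1.19 to 1.30 and a further run of 4 tags had 1.04 to 1.33. In this further run, the last tag is the most abundant of these, with 171.0, 181.4 and 174.4 FPKM in Mut_Met, against 82.8, 82.5 and 84.5 FPKM in WT_Met. On chromosome 4, a run of 4 tags had log2 fold changes of 1.32 to 1.54, and its most abundant tag, of 447 bases, had 310.3, 290.0 and 285.2 FPKM in Mut_Met, against 107.2, 94.8 and 101.9 FPKM in WT_Met. In all tags of these 4 runs of 3 or more the 3 mutant libraries lay above the 3 WT libraries. Each tag had an adjusted p-value of at most 2.2e-06 (limma). The runs hold only called tags, and 192 of the 195 called features had groups that did not overlap, against 71.3% of all tested features. Both traits thus follow largely from how the runs were built. Without WT_Met replicate 3 the tag of 1884 bases in the further run was no longer called (0.99).

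The lists of the most abundant transcripts overlapped between the strains, and no feature in them passed the fold-change criterion. The 10 most abundant features of Mut_Met and those of WT_Met had 7 features in common, which left 13 features in either list. Of these 13, 2 were higher and 6 lower in Mut_Met at an adjusted p-value under 0.05 (limma, against 29.6% and 36.7% of all features), and 0 were called.

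The most abundant feature of both strains, of 1992 bases on chromosome 4, had 16462, 16440 and 15711 FPKM in Mut_Met, against 20582, 21096 and 21564 FPKM in WT_Met. The feature ranked 2 in WT_Met, of 1098 bases on chromosome 3, had 13292, 13341 and 12294 FPKM in Mut_Met, against 16929, 16088 and 17165 FPKM in WT_Met. Both were lower in each mutant library than in any WT library, with log2 fold changes of -0.38 and -0.37 (adjusted p = 2.8e-04 and 5.5e-04, limma). On chromosome 3 there were also 2 features of 2124 bases among the 13. One had 12924, 12714 and 11884 FPKM in Mut_Met, against 14826, 14742 and 15495 FPKM in WT_Met, a log2 fold change of -0.26 (adjusted p = 0.0028, limma). The other had 7639, 7820 and 7391 FPKM in Mut_Met, against 7718, 7957 and 8147 FPKM in WT_Met, and its groups overlapped (adjusted p = 0.31, limma).

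The largest decreases among the 13 were those of a feature of 312 bases on chromosome 4 and of a feature of 1053 bases on chromosome 2. The feature of 312 bases had 5681, 5974 and 5761 FPKM in Mut_Met, against 10371, 10051 and 10968 FPKM in WT_Met, a log2 fold change of -0.85 (adjusted p = 2.8e-06, limma). The feature of 1053 bases had 5116, 5170 and 4605 FPKM in Mut_Met, against 8598, 8593 and 8446 FPKM in WT_Met, a log2 fold change of -0.79 (adjusted p = 6.1e-06, limma). A feature of 216 bases on chromosome 2 had 6678, 6913 and 6224 FPKM in Mut_Met, against 10212, 8626 and 8735 FPKM in WT_Met, a log2 fold change of -0.47 (adjusted p = 5.6e-04, limma). In none of these features did the groups overlap, and all 3 left the list of the 10 most abundant in the mutant.

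Higher in the mutant were a feature of 408 bases on chromosome 1 and one of 1038 bases on chromosome 3. The feature of 408 bases had 12754, 12014 and 12766 FPKM in Mut_Met, against 7974, 8049 and 8262 FPKM in WT_Met, a log2 fold change of 0.63 (adjusted p = 1.2e-05, limma). The feature of 1038 bases had 11948, 12064 and 10879 FPKM in Mut_Met, against 7196, 8134 and 7982 FPKM in WT_Met, a log2 fold change of 0.58 (adjusted p = 8.4e-05, limma). They moved to rank 4 and rank 7 in Mut_Met, against rank 11 and rank 14 in WT_Met. The groups overlapped in the 5 features of the 13 that did not pass the test. A feature of 1533 bases on chromosome 2 had 9087, 9554 and 9917 FPKM in Mut_Met, against 9263, 9212 and 9163 FPKM in WT_Met (adjusted p = 0.45, limma). A feature of 513 bases on chromosome 1 had 13461, 12734 and 11186 FPKM in Mut_Met, against 12346, 12523 and 12666 FPKM in WT_Met (adjusted p = 0.91, limma). These were the smallest differences among the 13. A feature of 354 bases on chromosome 4 had 13633, 14679 and 11303 FPKM in Mut_Met, against 14809, 14446 and 15087 FPKM in WT_Met (log2 fold change -0.17, adjusted p = 0.13, limma). A feature of 339 bases on the same chromosome had 7671, 8220 and 7942 FPKM in Mut_Met, against 8170, 8936 and 9316 FPKM in WT_Met (log2 fold change -0.15, adjusted p = 0.062, limma). Their means were lower in the mutant, and the differences did not pass the test.

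**Figure D3:**
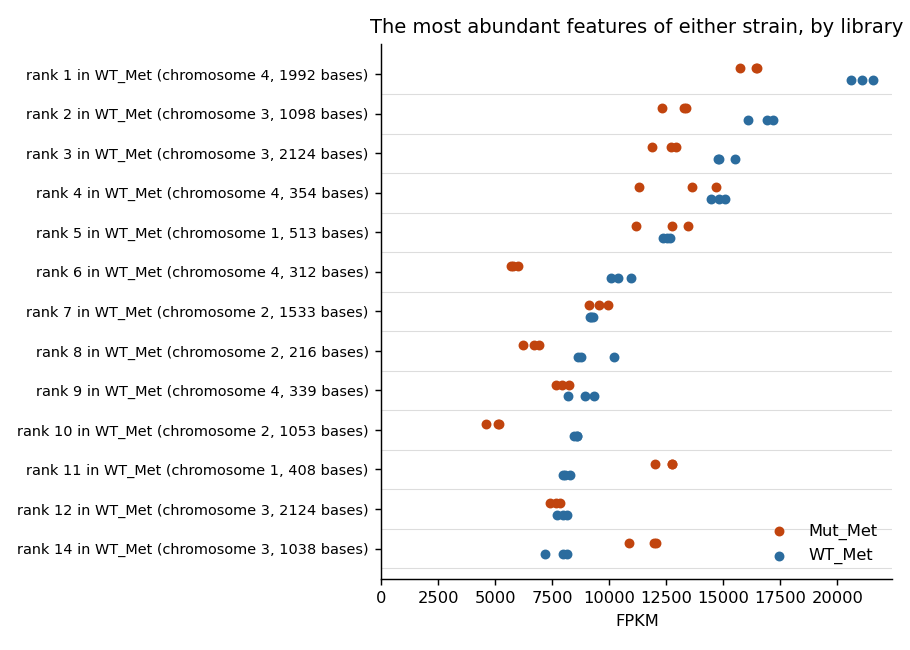
FPKM (x axis, linear from 0) of the 13 features that are among the 10 most abundant in either strain, with 1 point per library, Mut_Met above WT_Met in each row. The features ranked 1, 2, 3, 6, 8 and 10 in WT_Met lie lower in all Mut_Met libraries, and those ranked 11 and 14 lie higher.

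The share of the summed FPKM that fell to the 10 most abundant features of a library was 11.9%, 11.9% and 11.6% in Mut_Met and 11.8%, 11.8% and 12.1% in WT_Met. The groups overlapped (difference of -0.12 percentage points, exact two-sided permutation p = 0.6). The next 10 features held 6.10%, 6.26% and 6.01% in Mut_Met, against 6.47%, 6.61% and 6.69% in WT_Met after the first 10 were removed from the sum. These groups did not overlap (p = 0.1 by the exact permutation test, the smallest possible).

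Highly expressed features were more often lower than higher in the mutant. Among the 357 features above 500 FPKM on average, 219 were lower (61.3%, against 36.7% of all features) and 68 higher (19.0%, against 29.6%) at an adjusted p-value under 0.05 (limma). These shares are for the deposited scaling. With equal sums of FPKM, 190 were lower and 90 higher, while features between 50 and 100 FPKM had 336 lower and 686 higher. The median log2 fold change was then -0.17 between 500 and 1000 FPKM and -0.094 above 1000 FPKM, against 0.064 over all features. With the deposited scaling it was -0.27 between 500 and 1000 FPKM and -0.20 above 1000 FPKM, compared with -0.037 over all tested features. By contrast, features between 50 and 100 FPKM had a median of 0.0025, with 543 higher and 480 lower. Above 1000 FPKM on average, 130 features were found by the mean of Mut_Met and 171 by that of WT_Met.

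**Figure D4:**
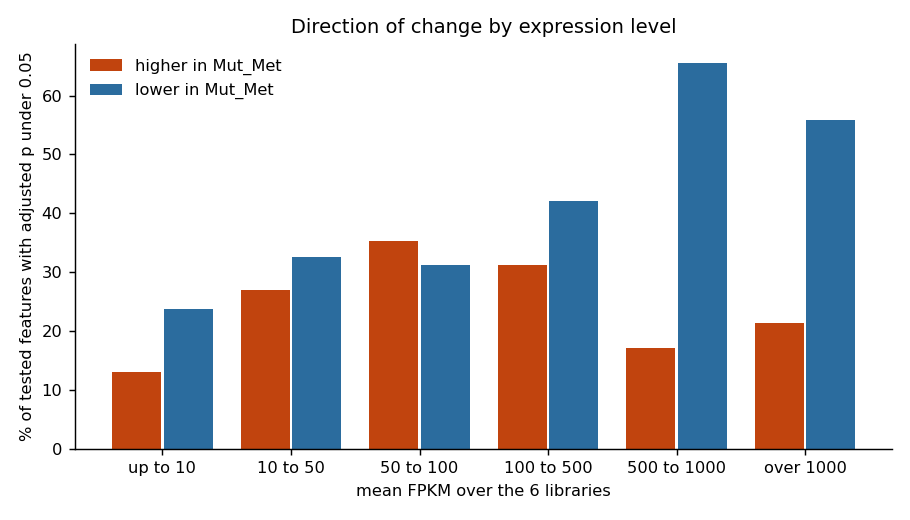
Percent of the tested features with an adjusted p-value under 0.05 (y axis, limma) that were higher or lower in Mut_Met, by mean FPKM over the 6 libraries (x axis). Between 500 and 1000 FPKM, 65.5% were lower and 17.2% higher, and above 1000 FPKM 55.8% were lower and 21.4% higher.

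Of the 154 features above 1000 FPKM on average, 5 were called, 3 higher and 2 lower (3.25% called, near the 3.58% of all features). Besides the feature of 1764 bases described above, the higher ones were neighbours on chromosome 2 of 312 and 414 bases. The feature of 312 bases had 2152, 1769 and 1438 FPKM in Mut_Met, against 777.5, 751.2 and 813.1 FPKM in WT_Met. The feature of 414 bases had 1916, 1457 and 1240 FPKM in Mut_Met, against 688.5, 642.1 and 730.3 FPKM in WT_Met. In both, the mutant libraries were far more spread than the WT libraries, with replicate 1 highest and replicate 3 lowest, and none overlapped the WT. Their log2 fold changes were 1.17 and 1.14 (adjusted p = 4.6e-05 and 9.4e-05, limma). The feature of 414 bases was no longer called without Mut_Met replicate 1 (0.97).

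The lower ones were features of 1506 and 333 bases on chromosome 4. The feature of 1506 bases had 867.7, 902.3 and 782.8 FPKM in Mut_Met, against 1717, 1829 and 1702 FPKM in WT_Met. The feature of 333 bases had 957.3, 944.4 and 809.9 FPKM in Mut_Met, against 2284, 2100 and 2097 FPKM in WT_Met. Their groups did not overlap, with log2 fold changes of -1.04 and -1.26 (adjusted p = 1.8e-06 and 1.6e-06, limma). The feature of 1506 bases was no longer called with equal sums of FPKM (-0.94) or without Mut_Met replicate 3 (-0.98).

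The direction of change moved with feature length. The length classes were set after the data had been seen, so the following is a description. The median log2 fold change was -0.29 for features of 101 to 300 bases, -0.18 for 301 to 600 bases, -0.091 for 601 to 1200 bases, -0.011 for 1201 to 2400 bases and 0.15 for features over 2400 bases. The shifts of Mut_Met replicates 1, 2 and 3 from the WT_Met mean were -0.27, -0.25 and -0.37 for 101 to 300 bases and 0.12, 0.14 and 0.18 over 2400 bases. All 3 mutant libraries thus moved in the same way, and replicate 3, the library farthest from its group, moved most. Of the 247 tested features of 101 to 300 bases, 26 were called lower (10.5%, against 1.82% of all features) and 5 higher, while over 2400 bases 13 of 660 were called higher (1.97%, near the 1.76% of all features) and 5 lower (0.758%). At an adjusted p-value under 0.05, 50.3% of the features over 2400 bases were higher and 15.3% lower. Length and level went together. The median level was 93.4 FPKM at 101 to 300 bases, 103 FPKM at 301 to 600 bases and 44.6 FPKM over 2400 bases. Whether the changes with level and with length are separate was not tested.

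The share of reads, which does not depend on the scaling between libraries, moved in the same direction. Features over 2400 bases took 15.3%, 15.3% and 15.9% of the recovered reads in Mut_Met, against 13.1%, 13.3% and 13.2% in WT_Met. Features of 101 to 300 bases took 1.202%, 1.195% and 1.105% in Mut_Met, against 1.528%, 1.370% and 1.375% in WT_Met. The groups did not overlap in 4 of the 6 length classes, each with an exact two-sided permutation p of 0.1, the smallest possible (0.15 adjusted over the 6 classes). With equal sums of FPKM the order of the classes was kept, with medians of -0.19 for 101 to 300 bases and 0.25 over 2400 bases.

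**Figure D5:**
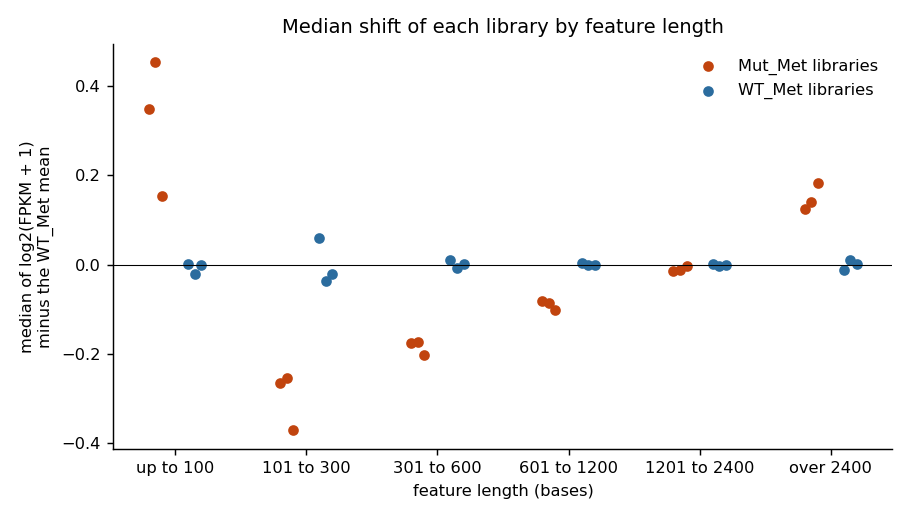
Median over features of log2(FPKM + 1) minus the WT_Met mean of each feature (y axis), by feature length in bases (x axis), with 1 point for each Mut_Met and WT_Met library. From 101 bases upward the Mut_Met points climb with length, between -0.37 and 0.18, while the WT_Met points stay between -0.038 and 0.059.

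Features of up to 100 bases did not follow this order. All 81 of the 122 that passed the filter were 71 to 84 bases long, and they had a median of only 21 reads over the 6 libraries. Their median log2 fold change was 0.57, and 14 were called higher (17.3%, against 1.76% of all features) and 5 lower (6.17%, against 1.82%). Among the 21 of them with at least 50 reads, the median was 0.069, with 6 called higher (28.6%) and 2 lower (9.52%). The 60 with fewer reads had a median of 0.62, with 8 called higher (13.3%) and 3 lower (5.0%). The median was thus smaller with more reads, while the share called was larger. In all, 15 features had reads in WT_Met only and 16 in Mut_Met only, with at most 13 reads over the 6 libraries, so every feature with more than 13 reads had reads in both strains.

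Features listed without a locus tag were mostly higher in the mutant. Of these 30, 27 passed the filter, and 15 were higher and 3 lower at an adjusted p-value under 0.05 (55.6% and 11.1%, against 29.6% and 36.7% of all features, limma). Their median log2 fold change was 0.33. Of the 27, 2 were called, both higher (7.41%, against 1.76% of all features). One, of 1971 bases, had 58.0, 61.9 and 56.0 FPKM in Mut_Met, against 25.5, 27.8 and 28.4 FPKM in WT_Met, a log2 fold change of 1.08 (adjusted p = 1.8e-06, limma). The other, of 573 bases, had 37.6, 44.4 and 40.5 FPKM in Mut_Met, against 19.1, 15.1 and 17.5 FPKM in WT_Met, a log2 fold change of 1.202 (adjusted p = 9.9e-06, limma). In both, every mutant library was above every WT library. This holds for nearly any called feature, as groups did not overlap in 192 of the 195.

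Of the 49 tags that carry MIT in place of a chromosome number, 6 passed the filter, all with low values. Their median log2 fold change was -0.58, and 1 of the 6 was called (16.7%, against 3.58% of all features). Tags with means of 0 and 0.76 FPKM in Mut_Met passed the filter only by their WT_Met means of 1.145 and 1.42 FPKM. The filter thus favours a negative median among these few tags. This feature, of 4353 bases, had 3.06, 3.43 and 4.20 FPKM in Mut_Met, against 7.52, 9.08 and 10.2 FPKM in WT_Met. The other 5 had an adjusted p-value of at least 0.101 (limma), so a difference in them was not shown. Their log2 fold changes were -1.10 to -0.44, at means of at most 3.59 FPKM in either strain. The value of -1.10 rests on 1 read in each WT_Met library and 0 in Mut_Met.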

How the data were processed

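RNA of 6 libraries was analysed, with 3 libraries of each of 2 strains. Per the labels, CASAVA, HISAT2 2.0.5 and featureCounts 1.5.0-p3 were used. The genome build and annotation are not given in the sources used here. The authors deposited a table without a named unit, whose values have the form of FPKM, as inferred from the values. The spacing of the values gave whole reads and lengths for all 5516 features above 0, and 98.2% of the lengths are multiples of 3. Library sizes implied by the values lay at 0.874 to 0.925 of those reads, so the deposited values include a scaling. No columns were left out of the table.

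The comparison was run on log2(FPKM + 1) in R 4.3.3 with the lmFit and trended eBayes functions of limma 3.58.1, on the 2 groups only, after a filter of 1 FPKM. Benjamini-Hochberg adjustment was over all 5448 features. Called features had an adjusted p below 0.05 and changed by more than 1 on the log2 scale. Both steps were tested on simulated data. The 12 largest changes in each direction among called features with groups that did not overlap and at least 5 FPKM were chosen, of which 2 in each direction were named because no identifier could be paired with a gene name, and the 10 most abundant features of each strain are described without identifiers. The 12 planned gene lists were not run for the same reason. The comparison and the lists were chosen with earlier results of these data known. No library was a duplicate of another, since chi-square values between replicates were 3.84 to 8.55 per degree of freedom. Tables and plots were made in Python 3.11.15 with pandas 2.3.3, numpy 2.4.6, matplotlib 3.10.9 and scipy 1.17.1. Alternatives were other pseudocounts, filters, scalings, samples, variance trends, calling criteria and tests, a replicate block, and each replicate left out.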

Additional observations from a re-analysis of the deposited data

How the results depend on the processing

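The number of called features was 195, with 194 to 206 under the other settings of pseudocount, filter, scaling, fit and test, and 173 to 206 on leaving out single replicates (92 to 105 higher, and lower ones between 77 and 105). The criterion for a call had the largest effect. With an adjusted p-value under 0.05 alone, 3612 features differed (1615 higher, 1997 lower), and limma's treat at a fold change of 1.2 called 1424 (633 higher, 791 lower). With equal sums of FPKM, 130 were higher and 74 lower, and 170 of the 195 were called again. Limma-voom on the recovered reads called 200, of which 189 were shared. The 4 named tags were called under every setting run.

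With the replicate number as a block, 195 features were called (97 higher, 98 lower), 193 of them shared. Correlations between the deviations of same-numbered libraries across features were 0.083, 0.026 and 0.027. Of the 6 libraries, 4 were closest to their own number. These values do not show whether same-numbered libraries were processed together. The difference in the share of the 10 most abundant features was -0.12 percentage points, between -0.19 and -0.022 on leaving out single replicates, and -0.47 for the next 10 features.

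The feature ranked 5 in WT_Met changed sign with equal sums (0.092) and without Mut_Met replicate 3 (-0.068 to 0.066 on leaving out single replicates), and the one ranked 12 with equal sums (0.042). None of these values passed the test. The split of 2 higher and 6 lower among the 13 features moved too. In the fit of all 3 groups, ranks 3 and 14 did not pass (adjusted p = 0.051 and 0.064, limma). Rank 7 passed with equal sums (adjusted p = 0.023, limma), and ranks 4 and 9 with limma-voom (0.043 and 0.019). Rank 4 also passed without Mut_Met replicate 2 (0.037, limma), and rank 9 without WT_Met replicate 1 (0.03, limma). The medians of the length classes, an analysis chosen after seeing the data, moved with equal sums by about the shift of all features. The median for up to 100 bases was 0.74 at pseudocount 0.1, 0.37 if unfiltered and 0.31 without WT_Met replicate 2. Few reads per feature limit these values.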
